A study of Homo sapiens with 24 samples.

Results

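The genes described here encode subunits of the intraflagellar transport (IFT) trains and of the BBSome, the machinery that builds and supplies the primary cilium. They were chosen by name, as every line of the gene count table whose symbol is IFT or BBS followed by a number only. This gave 22 of 59609 named genes, of which 14 were IFT genes and 8 were BBS genes. RNA was measured by 3′ RNA-seq, in which reads come from the ends of transcripts, in MDA-MB-231 cells and in MDA-MB-453 cells, which are breast cancer lines without oestrogen receptor (ER). Both are labelled wild-type. Each was treated for 5 days with DMSO (the solvent control), 500 nM abemaciclib, 5 nM fulvestrant, or the combination of both at these doses, with 3 biological replicates in each of the 8 groups. Abemaciclib inhibits the cell-cycle kinases CDK4 and CDK6, and fulvestrant degrades ER. MDA-MB-231 cells were grown in RPMI-1640 and MDA-MB-453 cells in DMEM, so that line and medium cannot be told apart. Each is 1 established line.

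A primary cilium is a single antenna that most cells raise from the mother centriole after leaving the cell cycle and take down before they divide. IFT-B trains, moved by kinesin-2, carry building blocks towards the tip, IFT-A trains, moved by dynein-2, carry material back and admit membrane proteins, and the BBSome links membrane cargo to the trains. Cells that stop dividing can therefore be asked whether these genes rise together. Only RNA was measured here, and cilia were not counted.

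Library totals ran from 2873558 to 4158762 counts, and the 22 genes together held 511 to 940 counts in a library. The labels of the lines fitted their markers: all 8 mesenchymal genes (VIM, AXL and others) had at least 1 count per 1000000 (CPM) under DMSO in MDA-MB-231, whereas none did in MDA-MB-453, and all 10 luminal apocrine genes (SPDEF, XBP1 and others) had at least 10 CPM in MDA-MB-453 and 5 did in MDA-MB-231. All 12 proliferation genes were lower with abemaciclib in MDA-MB-453, with a median log2 change of -3.60, and MDA-MB-231 had 11 of 12 lower and a median of -0.92 (in the combination, 12 of 12 in each line, medians -4.25 and -1.12). The share of counts from mitochondrially encoded genes rose from 8.83% ± 0.21 (SD, n = 3) under DMSO in MDA-MB-231 cells to 12.2% ± 1.05 with abemaciclib, and in MDA-MB-453 cells from 15.2% ± 0.65 to 23.8% ± 1.91. Its part in the results was not tested, but the counts of called genes were also obtained with these genes removed.

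The RefSeq promoter windows (GRCh38.p14, 250 bases before to 50 after each start) were searched for the X-box, the site known to be bound by RFX factors, which switch on many cilium genes. It was written as GTNNCC, 0 to 3 bases and GGNNAC, which reads the same on both strands. Of the 22 genes, 20 had a window, and BBS9 and IFT22 had none. The X-box letters occurred in 2 of 20 (10.0%), IFT57 and IFT122, compared with 1037 of all 27162 windows (3.82%). These windows are shown because both genes differed strongly between the lines or treatments below. Capitals mark the X-box letters. The IFT57 window (chr3:108222375-108222674, minus strand) held 2 matches, with first bases at -30 and -3 from the start, and the IFT122 window (chr3:129439974-129440273, plus strand) held 1, with its first base at -12.
IFT57: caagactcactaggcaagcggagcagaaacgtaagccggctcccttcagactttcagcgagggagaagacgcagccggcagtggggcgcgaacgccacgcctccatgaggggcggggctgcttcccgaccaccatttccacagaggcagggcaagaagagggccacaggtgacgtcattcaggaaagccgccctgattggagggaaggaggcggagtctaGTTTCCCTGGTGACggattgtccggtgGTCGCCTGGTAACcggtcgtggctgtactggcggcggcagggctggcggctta
IFT122: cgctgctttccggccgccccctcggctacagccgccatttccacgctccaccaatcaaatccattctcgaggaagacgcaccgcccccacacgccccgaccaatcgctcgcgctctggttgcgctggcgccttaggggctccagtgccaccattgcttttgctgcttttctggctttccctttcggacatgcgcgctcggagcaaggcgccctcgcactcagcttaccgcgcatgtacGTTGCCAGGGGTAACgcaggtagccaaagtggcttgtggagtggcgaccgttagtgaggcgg
The E2F letters TTTGGCGC or TTTCCCGC, searched on both strands, occurred in 626 windows (2.3%) and in 0 of the 20. E2F sites are known from the promoters of genes that fall when proliferation stops. A match in letters is a description only, and its absence refers to this window alone.

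**Figure D1:**
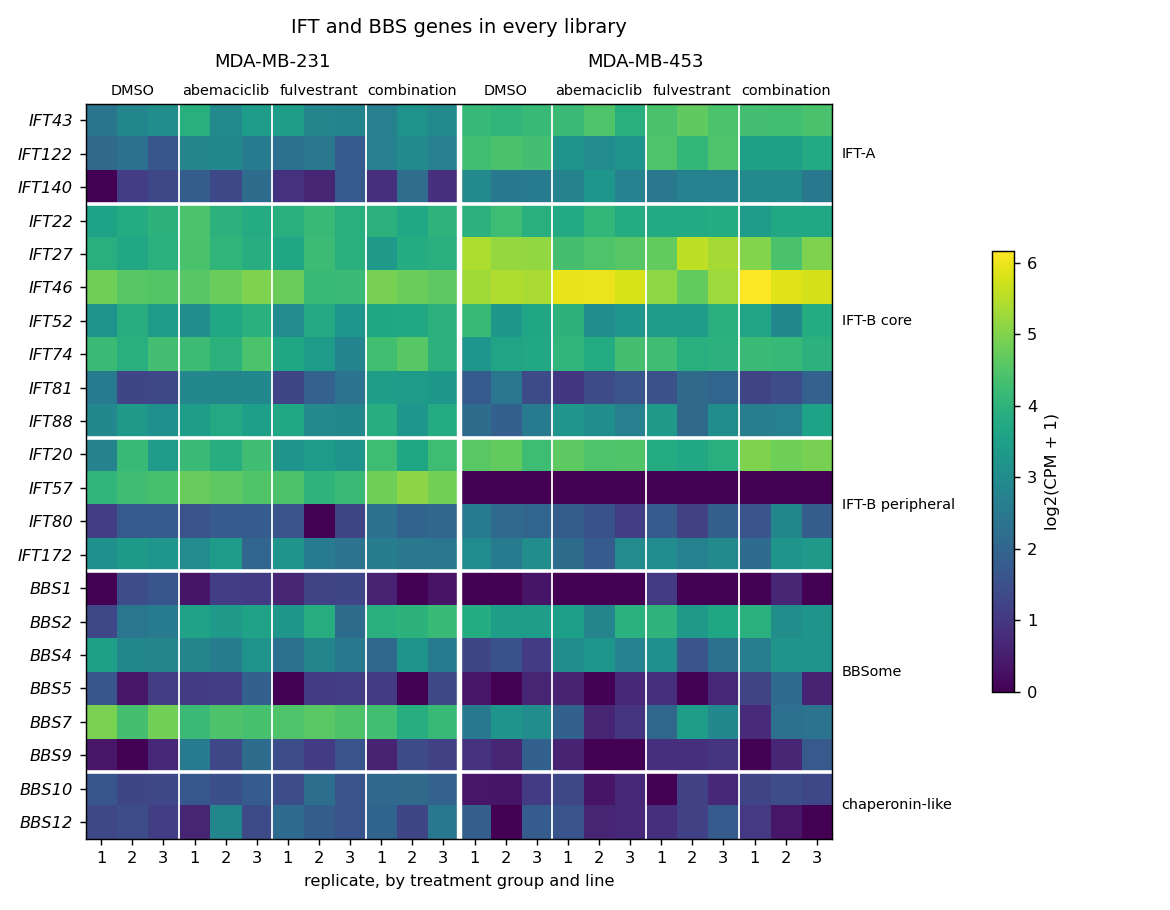
Each row is an IFT or BBS gene, grouped by role, and each column is 1 library, ordered by line, treatment and replicate. Colour gives log2(CPM + 1), on the library total. IFT57 is at 0 in all 12 MDA-MB-453 libraries, and BBS1, BBS5, BBS9, BBS10 and BBS12 are close to 0 in that line.

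The first question was whether the IFT and BBS genes rose together in cells treated with abemaciclib, in which the proliferation genes were lower. Genes with enough counts were tested with edgeR, and a gene was called where the p adjusted for all tested genes was below 0.05. In MDA-MB-231, 1 of the 18 tested members was called with abemaciclib, BBS2, which rose, against 33.7% of all 11314 genes tested (16.9% higher and 16.9% lower). Of the 16 members tested in MDA-MB-453, 6 were called, 3 higher (BBS4, IFT46 and IFT74) and 3 lower (BBS7, IFT122 and IFT27), against 36.0% of 11080 genes (16.6% higher and 19.4% lower). The members are expressed at low levels, and among genes in the range of their average levels the shares called were 21.7% (MDA-MB-231) and 27.2% (MDA-MB-453).

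With the combination, 4 of 18 members were called in MDA-MB-231, 3 higher (BBS2, IFT57 and IFT81) and 1 lower (BBS7), against 35.4% of genes (17.0% higher and 18.3% lower; 23.1% in the range of the members' levels). In MDA-MB-453, 3 of 16 were called, BBS4 and IFT46 higher and IFT122 lower, against 37.6% (17.6% higher and 20.0% lower; 29.6% in the range of the members' levels). In each of these comparisons the share of members called was near or below the background, and in MDA-MB-453 members were called in both directions.

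The median member stood above the median gene in MDA-MB-231. Its log2 change was 0.34 with abemaciclib and 0.42 with the combination, against -0.00 and -0.01 over all genes, and 15 and 14 of the 18 members had values above 0. Genes in the range of the members' levels were also called higher more often than lower there, at 14.7% and 6.97% with abemaciclib and 15.1% and 7.95% with the combination. In MDA-MB-453 the medians were -0.05 and 0.02, against -0.00 and 0.00, with 7 and 8 of 16 above 0, and the sign of both medians changed when single libraries were left out (-0.11 to 0.10 with abemaciclib and -0.06 to 0.17 with the combination). Over the 15 members tested in both lines, abemaciclib gave values above 0 in both for 5, below 0 in both for 2, above 0 in MDA-MB-231 alone for 7 and above 0 in MDA-MB-453 alone for 1. The members' median therefore lay on the higher side in 1 line and near that of all genes in the other.

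Summed over all 22 genes, the level in MDA-MB-231 was 179 ± 5.70 CPM (SD, n = 3) under DMSO, 218 ± 5.71 with abemaciclib, 168 ± 15.8 with fulvestrant and 218 ± 2.01 with the combination. The libraries of both abemaciclib-treated groups lay above those under DMSO. In MDA-MB-453 the sums were 219 ± 6.21, 210 ± 7.51, 212 ± 11.9 and 235 ± 11.6 CPM in the same order. With mitochondrially encoded counts left out of the totals, MDA-MB-231 had 248 ± 9.17 CPM with abemaciclib against 197 ± 6.29 under DMSO, while MDA-MB-453 had 276 ± 3.51 against 258 ± 5.96, so that in the second line the order of these sums depended on the total used. With the combination the mean sum in that line was above DMSO with both totals, at 298 ± 13.7 CPM without mitochondrially encoded counts. In RNA from whole cultures, fewer cells expressing a gene and less RNA per cell cannot be told apart.

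**Figure D2:**
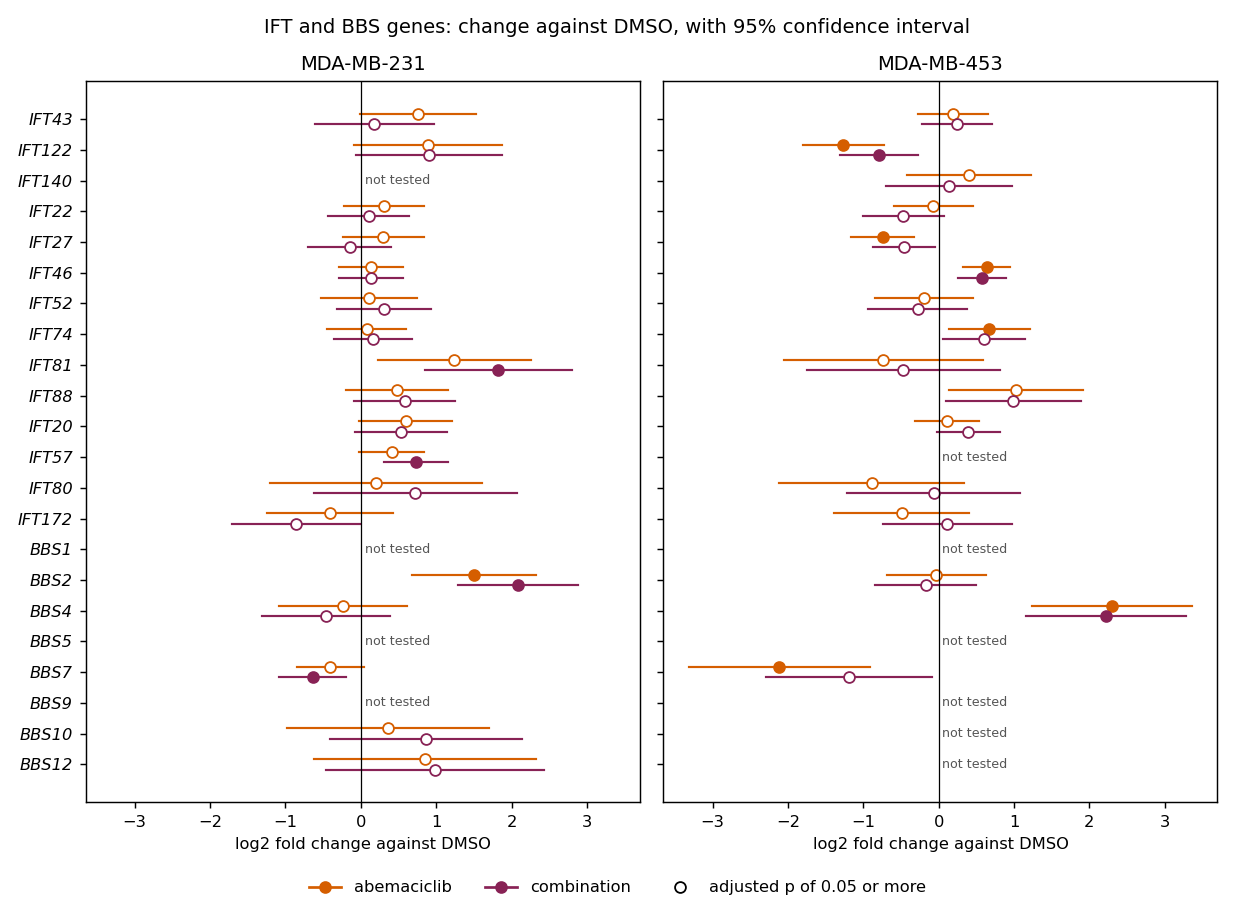
Log2 fold change against DMSO (x axis) of each IFT and BBS gene (y axis) in MDA-MB-231 (left) and MDA-MB-453 (right), for abemaciclib and the combination, with 95% confidence intervals from edgeR. Filled points have an adjusted p below 0.05. In MDA-MB-231 most points lie above 0 but few are filled, and in MDA-MB-453 filled points lie on both sides.

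Among the IFT-A genes, IFT122, a core subunit of the complex, fell in MDA-MB-453. Its levels there were 18.7, 20.3 and 19.1 CPM under DMSO, 7.84, 6.84 and 8.12 with abemaciclib, 21.0, 16.0 and 21.1 with fulvestrant and 10.4, 10.4 and 12.8 with the combination. All 6 libraries with abemaciclib lay below all 6 without it. The log2 change was -1.26 (SE 0.27, adjusted p = 1.6e-04) with abemaciclib and -0.79 (SE 0.26, adjusted p = 0.0127) with the combination. In MDA-MB-231 the same gene was at 3.35, 3.80 and 2.12 CPM under DMSO and 5.96, 6.38 and 4.93 with abemaciclib, without overlap, and its log2 change of 0.89 (SE 0.49, adjusted p = 0.162) was not called. The effects of abemaciclib on IFT122 differed between the lines by -2.14 on the log2 scale (SE 0.47, adjusted p = 5.0e-04), and those of the combination by -1.70 (SE 0.46, adjusted p = 0.00531), both as MDA-MB-453 minus MDA-MB-231. IFT122 shares 279 exon bases with MBD4 on the other strand, and without strand in counting their reads cannot be told apart.

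The other IFT-A genes were not called by treatment. IFT43, which joins the complex through its WD-repeat partners, had a log2 change of 0.76 (95% interval -0.01 to 1.53) in MDA-MB-231 with abemaciclib, while that in MDA-MB-453 was 0.19 (-0.28 to 0.66). IFT140, another WD-repeat core subunit, held too few counts for a test in MDA-MB-231, where it went from 0, 1.17 and 1.51 CPM under DMSO to 2.56, 1.52 and 3.56 with abemaciclib. It was steadier in MDA-MB-453, at 4.65 to 6.72 CPM under DMSO and 5.71 to 8.48 with abemaciclib, where the log2 change was 0.40 (-0.42 to 1.23).

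Among the IFT-B core genes, IFT46, a subunit that carries outer dynein arms in motile cilia, rose in MDA-MB-453. Levels were 38.0, 42.1 and 41.0 CPM under DMSO, 61.5, 62.4 and 54.1 with abemaciclib, 33.9, 24.7 and 37.3 with fulvestrant and 71.0, 57.1 and 53.6 with the combination. Every library with abemaciclib lay above every library without it. The log2 changes were 0.64 (SE 0.16, adjusted p = 0.00104) with abemaciclib and 0.57 (SE 0.16, adjusted p = 0.0032) with the combination. In MDA-MB-231, IFT46 had log2 changes of 0.14 with both, with intervals of -0.28 to 0.56.

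IFT27, a small GTPase-like subunit through which the BBSome is linked to the trains, fell with abemaciclib in MDA-MB-453. Its levels were 41.2, 35.9 and 34.9 CPM under DMSO, 19.2, 21.3 and 22.5 with abemaciclib, 24.8, 46.5 and 39.7 with fulvestrant and 31.7, 20.0 and 30.4 with the combination. Both groups with abemaciclib lay below the DMSO libraries, whereas the fulvestrant libraries ran from below to above the DMSO libraries. The log2 change was -0.74 (SE 0.21, adjusted p = 0.00397) with abemaciclib and -0.46 (SE 0.20, adjusted p = 0.0746) with the combination, which missed the threshold. In MDA-MB-231, where levels ran from 12.0 to 14.2 CPM under DMSO and 13.4 to 20.2 with abemaciclib, the log2 change was 0.30 (SE 0.27). The abemaciclib effects differed between lines by -1.03 (SE 0.34, adjusted p = 0.0228). IFT27 shares 955 exon bases with a long noncoding RNA gene on the other strand, with the same limit as IFT122.

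IFT81, which with IFT74 forms the tubulin-binding module of IFT-B, rose with the combination in MDA-MB-231. Levels were 4.88, 1.46 and 1.51 CPM under DMSO, 6.25, 6.08 and 6.30 with abemaciclib, 1.44, 2.84 and 4.09 with fulvestrant and 9.97, 9.38 and 8.76 with the combination. Both groups with abemaciclib lay above both without it, and DMSO replicate 1 stood higher than the other two. The log2 change was 1.83 (SE 0.48, adjusted p = 0.0026) with the combination and 1.24 (SE 0.50, adjusted p = 0.0505) with abemaciclib, and the latter was called without DMSO replicate 1. Without that replicate, the change with the combination was 2.62. In MDA-MB-453 IFT81 stayed between 1.01 and 4.38 CPM in all 12 libraries, with log2 changes of -0.73 (-2.05 to 0.58) and -0.47 (-1.75 to 0.81). The combination effects differed between lines by -2.30 (SE 0.76, adjusted p = 0.028).

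IFT74, its partner, was called higher with abemaciclib in MDA-MB-453. It was at 8.47, 11.2 and 11.9 CPM under DMSO, 15.7, 12.9 and 19.2 with abemaciclib, 18.3, 13.9 and 14.7 with fulvestrant and 17.4, 16.5 and 14.6 with the combination. All 9 drug-treated libraries, including those with fulvestrant alone, lay above the DMSO libraries. The log2 change with abemaciclib was 0.67 (SE 0.27, adjusted p = 0.0443), and the call was lost in 9 of 14 alternative analyses, among them those without DMSO replicate 1 (0.53, adjusted p = 0.178), DMSO replicate 2 (0.71, adjusted p = 0.0735), abemaciclib replicate 1 (0.71, adjusted p = 0.0602) or abemaciclib replicate 3 (0.50, adjusted p = 0.21). In MDA-MB-231 the log2 changes were 0.08 (SE 0.26) and 0.16 (SE 0.26). IFT74 shares 108 exon bases with PLAA on the other strand.

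The other IFT-B core genes, IFT22, IFT52 and IFT88, were not called against DMSO in either line. IFT88, whose loss is known to leave cells without cilia, was nearest to a call: in MDA-MB-453 it went from 3.51, 2.74 and 4.71 CPM under DMSO to 8.35, 7.39 and 5.41 with abemaciclib and 5.22, 5.5 and 11.0 with the combination. The treated libraries lay above the DMSO libraries, but the log2 changes of 1.03 (SE 0.44, adjusted p = 0.067) and 0.99 (SE 0.44, adjusted p = 0.0747) missed the threshold. IFT22, a small GTPase-like subunit, and IFT52, a scaffold of the core, had log2 changes between -0.47 and 0.31 over both lines and both treatments.

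**Figure D3:**
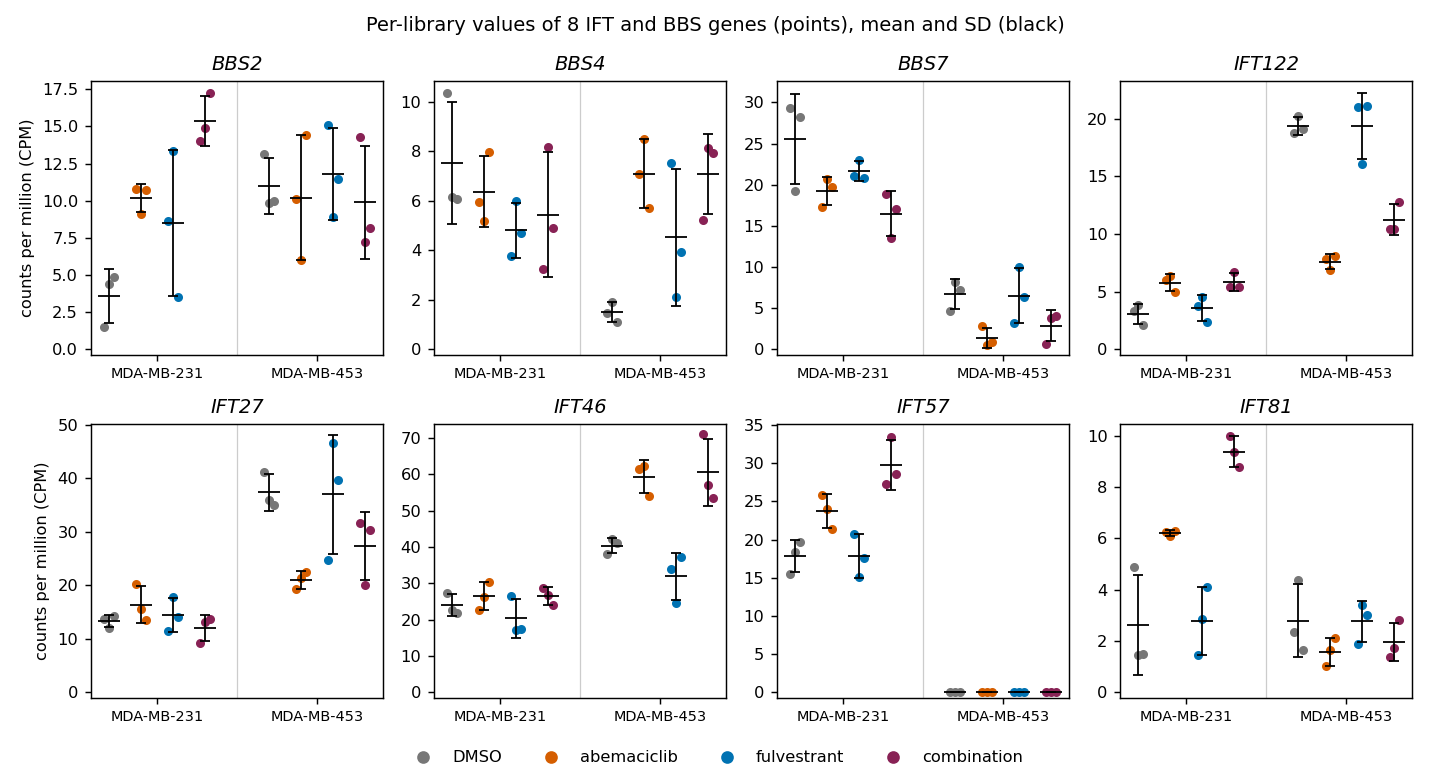
CPM (y axis) of 8 IFT and BBS genes in each library, by line and by treatment from left to right (DMSO, abemaciclib, fulvestrant, combination); points are libraries and black marks the mean and SD of 3. BBS2 rises with abemaciclib in MDA-MB-231 from a lower DMSO level, BBS4 rises and IFT122 and BBS7 fall in MDA-MB-453, and IFT57 is at 0 throughout MDA-MB-453.

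Among the peripheral IFT-B genes, IFT57, a coiled-coil subunit, showed the widest gap between the lines. Its levels in MDA-MB-231 were 15.5, 18.4 and 19.7 CPM under DMSO, 25.8, 24.0 and 21.4 with abemaciclib, 20.8, 15.1 and 17.5 with fulvestrant and 27.2, 33.4 and 28.6 with the combination. In MDA-MB-453 it had 0 counts in all 12 libraries, which together held 42708475 counts. With the MDA-MB-453 group set to a floor of 3 counts in all, it was at least 63.7-fold lower in MDA-MB-453 under DMSO and at least 102-fold lower with the combination. In MDA-MB-231 the log2 change was 0.73 (SE 0.21, adjusted p = 0.00535) with the combination and 0.41 (SE 0.21, adjusted p = 0.14) with abemaciclib, although all 3 abemaciclib libraries also lay above the DMSO libraries. The gene lies at chr3:108160812-108222435 on the minus strand (GRCh38) and shares no exon base with another gene of the annotation.

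IFT20, the subunit that also works at the Golgi, IFT80 and IFT172 were not called with abemaciclib or the combination. IFT80 shares 1953 exon bases with an unnamed protein-coding gene of the annotation on the same strand, which strand does not separate. IFT20 was the only member called with fulvestrant: in MDA-MB-453 it was at 23.1, 24.6 and 18.0 CPM under DMSO, 12.9, 12.1 and 13.8 with fulvestrant, 23.8, 21.3 and 21.6 with abemaciclib and 30.6, 26.9 and 29.1 with the combination. The fulvestrant libraries lay below all the others, yet the combination, which contains fulvestrant, held the highest levels. The log2 change with fulvestrant was -0.81 (SE 0.22, adjusted p = 0.0457), against a background of 1.41% of genes called. The call was lost without any of DMSO replicates 1, 2 and 3 or fulvestrant replicates 1 and 2, with counts of 0 members called in each case. IFT20 shares 361 exon bases with TMEM97 on the other strand, with the same limit as IFT122. IFT172, the largest IFT-B protein, was the member with the most negative change with the combination in MDA-MB-231, at -0.86 (-1.71 to -0.01), and was not called.

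Among the BBSome subunits, BBS2, a beta-propeller protein of the complex, rose with abemaciclib in MDA-MB-231. Levels were 1.52, 4.38 and 4.85 CPM under DMSO, 10.8, 9.12 and 10.7 with abemaciclib, 8.66, 13.4 and 3.51 with fulvestrant and 14.0, 14.9 and 17.3 with the combination. The libraries with abemaciclib lay above those under DMSO, and the fulvestrant libraries spanned both. The log2 change was 1.5 (SE 0.41, adjusted p = 0.00345, 2.83-fold) with abemaciclib and 2.08 (SE 0.39, adjusted p = 4.1e-05, 4.24-fold) with the combination, and neither call was lost in the 14 alternatives. In MDA-MB-453, whose DMSO level of 11.0 ± 1.87 CPM (SD, n = 3) was near the abemaciclib level of MDA-MB-231, the log2 changes were -0.03 (-0.69 to 0.63) and -0.17 (-0.85 to 0.50). The effects differed between lines by -1.52 (SE 0.55, adjusted p = 0.0402) with abemaciclib and -2.27 (SE 0.54, adjusted p = 0.00147) with the combination. BBS2 (chr16:56465640-56582667, minus strand) shares 498 exon bases with OGFOD1 on the other strand, and reads of these could be confused if strand was not used in counting. It also shares 1086 exon bases with an unnamed protein-coding gene of the annotation on the same strand, which strand does not separate.

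BBS4, which connects the BBSome to centriolar satellites, rose in MDA-MB-453. It was at 1.46, 1.92 and 1.11 CPM under DMSO, 7.08, 8.48 and 5.71 with abemaciclib, 7.54, 2.10 and 3.91 with fulvestrant and 5.22, 8.11 and 7.92 with the combination. All 9 treated libraries lay above the DMSO libraries, which held 16 counts in total. The log2 changes were 2.30 (SE 0.53, adjusted p = 4.5e-04, 4.94-fold) with abemaciclib, 2.22 (SE 0.53, adjusted p = 7.2e-04) with the combination and 1.51 (SE 0.55, adjusted p = 0.167) with fulvestrant, the last not called. In MDA-MB-231, at 6.06 to 10.4 CPM under DMSO and 5.17 to 7.95 with abemaciclib, the log2 changes were -0.23 (-1.08 to 0.61) and -0.46 (-1.31 to 0.39). The effects differed between lines by 2.55 (SE 0.66, adjusted p = 0.00326) with abemaciclib and 2.67 (SE 0.66, adjusted p = 0.00229) with the combination.

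BBS7, another beta-propeller subunit and a binding partner of BBS2, was lower with abemaciclib. In MDA-MB-453 it was at 4.68, 8.21 and 7.20 CPM under DMSO, 2.78, 0.547 and 0.902 with abemaciclib, 3.23, 9.98 and 6.32 with fulvestrant and 0.696, 3.77 and 4.09 with the combination. The libraries with abemaciclib lay below the DMSO libraries in both groups. The log2 change was -2.12 (SE 0.60, adjusted p = 0.00408) with abemaciclib and -1.19 (SE 0.54, adjusted p = 0.0816) with the combination. Without abemaciclib replicate 1, the highest of its group, the change with abemaciclib was -3.06 (adjusted p = 9.8e-04). In MDA-MB-231 BBS7 was at 29.3, 19.3 and 28.2 CPM under DMSO, 17.3, 20.7 and 19.7 with abemaciclib, 21.1, 23.0 and 20.8 with fulvestrant and 18.9, 13.5 and 17.0 with the combination. The combination libraries lay below those under DMSO, whereas the abemaciclib libraries overlapped them. The log2 change with the combination was -0.64 (SE 0.22, adjusted p = 0.0208), and it was not called without DMSO replicate 1 (-0.53, adjusted p = 0.103), DMSO replicate 3 (-0.55, adjusted p = 0.0952) or combination replicate 2 (-0.51, adjusted p = 0.119). The abemaciclib effects differed between lines by -1.69 (SE 0.57, adjusted p = 0.0275). With the combination in MDA-MB-231, BBS2 and BBS7, which sit side by side in the complex, thus moved in opposite directions.

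The remaining BBS genes were near the detection limit. BBS1, BBS5 and BBS9, all BBSome subunits, failed the filter on low counts in both lines, and BBS10 and BBS12, the chaperonin-like proteins that help to assemble the BBSome, failed it in MDA-MB-453. The members that failed held 37 to 70 counts in total over the 12 MDA-MB-231 libraries and 0 to 50 over the other 12, and they were not tested there. BBS1 and BBS5 share 3311 and 998 exon bases with unnamed protein-coding genes of the annotation on the same strand. Strand does not separate such reads, and whether this lowered their counts was not tested. BBS9 had 1, 0 and 2 counts under DMSO, 17, 5 and 13 with abemaciclib and 2, 7 and 5 with the combination in MDA-MB-231. With abemaciclib it was called there in some alternative fits, among them that with no filter on low counts. A filter on counts can keep such a gene through the group where it is high, so these calls are not independent support. BBS10 and BBS12 had log2 changes between 0.36 and 0.98 in MDA-MB-231, and the widest of their intervals ran from -0.62 to 2.32.

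The second question was whether fulvestrant changed these genes in cells labelled ER-negative. In MDA-MB-231, edgeR called 0 of 18 members with fulvestrant, as DESeq2 did, against 0% of all genes. At an unadjusted p below 0.05 there were 2 members, IFT74 (log2 change -0.90, SE 0.28, adjusted p = 0.439) and BBS2 (1.24, SE 0.41, adjusted p = 0.451). The share of all genes below this looser threshold is not given here for either line, so such counts only describe single members. The 0% depended on 1 library: without fulvestrant replicate 1, 205 of 11596 genes were called, 36 higher and 169 lower, and 0 members. In MDA-MB-453 the single call was IFT20, described above, and 3 members had an unadjusted p below 0.05: IFT20, BBS4 (given above) and IFT46 (-0.40, SE 0.16, adjusted p = 0.24). Leaving out fulvestrant replicate 3 of this line gave 786 of 11370 genes called, against 156 of 11080 with all libraries. Adding fulvestrant to abemaciclib changed 0 of 18 members in MDA-MB-231 (0.0265% of all genes) and 0 of 16 in MDA-MB-453 (2.46%). In both lines 0 members reached an unadjusted p below 0.05 in edgeR. The members' median difference between the combination and abemaciclib was 0.05 (MDA-MB-231) and 0.01 (MDA-MB-453) on the log2 scale. DESeq2 also called 0 members, but it gave an adjusted p to only 1070 genes for MDA-MB-231 and 5434 for MDA-MB-453. Its 0 may therefore mean that members were not tested, and no conclusion is drawn from it.

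Of the 19 members tested over both lines, 12 were called, with 7 higher in MDA-MB-453 and 5 lower, against 69.8% of 12750 genes (34.3% higher and 35.6% lower). Within single lines, IFT57, BBS10 and BBS12 passed the filter on low counts only in MDA-MB-231, and IFT140 only in MDA-MB-453. For these genes the filter and the difference between lines are not independent. The count of 12 includes IFT57 and IFT140, whereas BBS10 and BBS12 were not called (adjusted p = 0.105 and 0.806 in edgeR). The members higher in MDA-MB-453 were IFT122 (log2 difference 2.7, SE 0.33), IFT140 (2.59, SE 0.65), BBS2 (1.67, SE 0.41), IFT27 (1.55, SE 0.24), IFT43 (1.53, SE 0.30), IFT20 (1.07, SE 0.27) and IFT46 (0.82, SE 0.19). Those lower were IFT57, at 0 counts, BBS4 (-2.24, SE 0.50), BBS7 (-1.86, SE 0.33), IFT88 (-1.0, SE 0.41) and IFT74 (-0.60, SE 0.27). The calls of IFT74 (adjusted p = 0.044) and IFT88 (adjusted p = 0.027) were lost when single DMSO libraries were left out, replicates 1 and 3 of MDA-MB-231 and 1 of MDA-MB-453 for IFT74, and replicate 2 of MDA-MB-231 and 1 and 2 of MDA-MB-453 for IFT88.

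Whether the drug effect itself differed between lines was tested with the effect in MDA-MB-231 subtracted from the effect in MDA-MB-453. For abemaciclib, 5 of 19 members were called, BBS4 higher and BBS2, BBS7, IFT122 and IFT27 lower, against 20.7% of genes (7.72% higher and 13.0% lower). For the combination, 4 were called, BBS4 higher and BBS2, IFT122 and IFT81 lower, against 17.7% (6.16% higher and 11.6% lower). These shares were close to those of all genes. The 19 include IFT57, which passed the filter through MDA-MB-231 and had 0 counts in MDA-MB-453. Its differences had an SE of 640.5 (abemaciclib) and 1132 (combination), so it could not be called in either test.

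**Figure D4:**
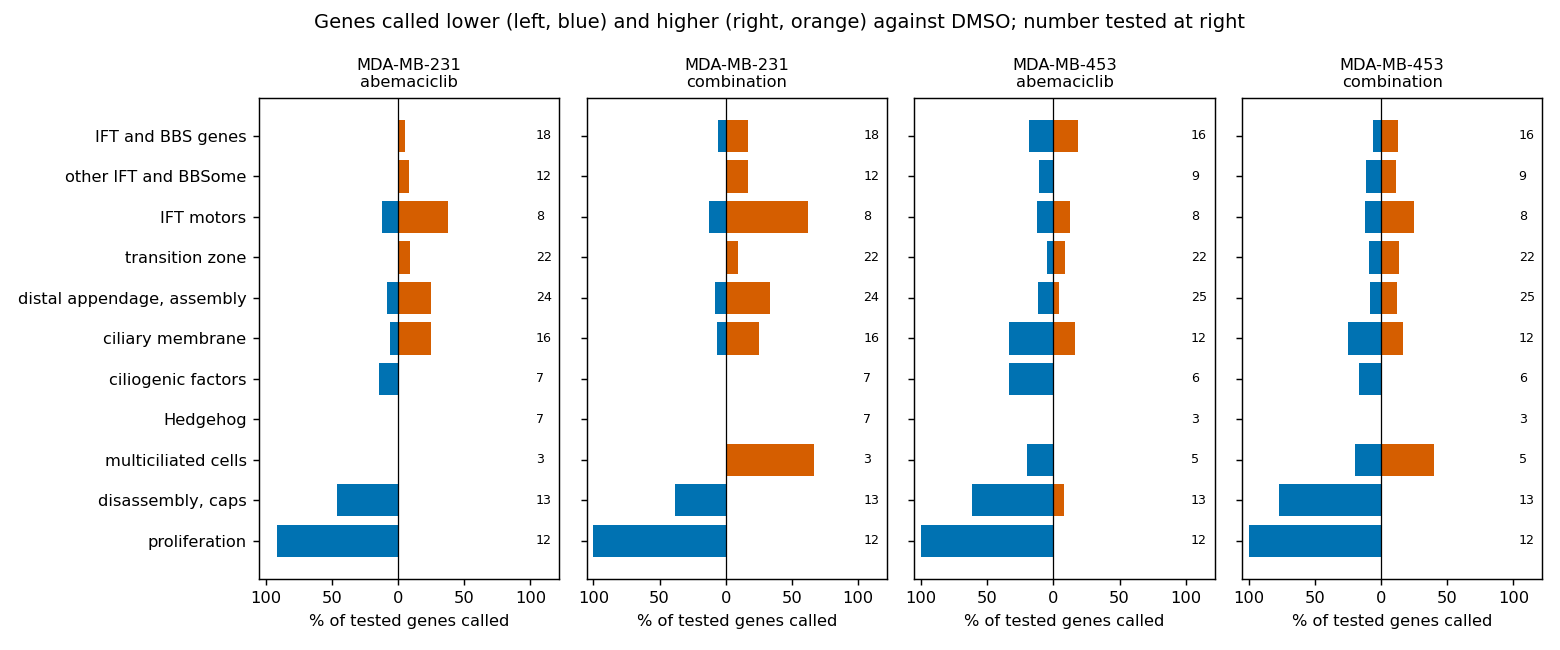
Share of the tested genes of each list (rows) called lower (blue, left) or higher (orange, right) against DMSO, in %, for abemaciclib and the combination in each line, with the number tested at the right of each panel. The IFT and BBS genes are the top row, and the lists with mostly lower calls in all 4 panels are cilium disassembly and proliferation.

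Other genes of the cilium were counted from lists written by role. As a background, 16.9% of all tested genes were called higher with abemaciclib and 16.9% lower (MDA-MB-231), or 16.6% and 19.4% (MDA-MB-453). For the combination these shares were 17.0% and 18.3% (MDA-MB-231), or 17.6% and 20.0% (MDA-MB-453). Whether the counts of a list differed from these shares was not tested, so they describe single genes. Those IFT and BBSome subunits that carry other symbols gave 1 higher and 0 lower of 12 with abemaciclib in MDA-MB-231, where CLUAP1, an IFT-B subunit, rose (log2 change 0.72, adjusted p = 0.0115), and 0 higher and 1 lower of 9 in MDA-MB-453, where HSPB11 fell (-1.26, adjusted p = 2.3e-09). HSPB11 is the partner of IFT27, which fell in the same line. With the combination the counts were 2 and 0 of 12, and 1 and 1 of 9. The motors of the trains gave 3 higher and 1 lower of 8 in MDA-MB-231, and MDA-MB-453 gave 1 and 1 of 8 (5 and 1, and 2 and 1 with the combination). WDR34, a dynein-2 intermediate chain, fell in both lines with abemaciclib (-0.78, adjusted p = 2.2e-05, and -1.68, adjusted p = 1.3e-15).

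The transition zone, the gate at the base of the cilium, had 2 genes higher and 0 lower of 22 with abemaciclib in MDA-MB-231, while MDA-MB-453 had 2 and 1 of 22 (2 and 0, and 3 and 2 with the combination). In MDA-MB-453, TMEM80 (1.28, adjusted p = 4.5e-09) and CEP290 (1.08, adjusted p = 2.4e-04) rose. Distal appendage and assembly genes gave 6 higher and 2 lower of 24 in MDA-MB-231, led by the kinase MARK4 (1.06, adjusted p = 1.4e-04) and the GTPase RABL2B (1.01, adjusted p = 8.9e-04), with CEP83, which anchors the appendages, lower (-0.93, adjusted p = 0.0137). In MDA-MB-453 they gave 1 and 3 of 25, with RAB11A (0.28, adjusted p = 0.00682) higher and SCLT1 (-1.11, adjusted p = 0.00142) and FUZ (-0.80, adjusted p = 0.0145) lower. The combination gave 8 and 2, and 3 and 2. RABL2B has a close copy, RABL2A, and its reads may be split between them.

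Ciliary membrane and signalling genes gave 4 higher and 1 lower of 16 in MDA-MB-231, while MDA-MB-453 gave 2 and 4 of 12 (4 and 1, and 2 and 3 with the combination). UNC119B (0.92, adjusted p = 0.00251) and UNC119 (0.91, adjusted p = 0.00428), carriers of lipid-modified proteins, rose in MDA-MB-231, PKD1 (1.72, adjusted p = 1.7e-06) and NEK1 (0.61, adjusted p = 0.0266) rose in MDA-MB-453, where the GTPase ARL3 fell (-0.79, adjusted p = 2.5e-04), and the tubulin TUBB4B, also used by the spindle, fell in both (-0.88, adjusted p = 9.2e-11, and -1.36, adjusted p = 9.1e-18). Hedgehog genes, whose signal passes through the cilium, gave no call with either treatment (0 of 7 and 0 of 3 tested), and of the 15 genes 2 had no count in the 12 libraries of MDA-MB-231 and 5 had none in those of MDA-MB-453.

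The list that moved most evenly was that of cilium disassembly factors and centriole caps, with 0 higher and 6 lower of 13 with abemaciclib in MDA-MB-231 (0 and 5 with the combination), and in MDA-MB-453 1 and 8 of 13 (0 and 10). Its median log2 changes were -0.63 and -0.62 with abemaciclib and -0.61 and -0.92 with the combination. Its leading genes were the mitotic kinases NEK2 (-1.90, adjusted p = 7.1e-07) and PLK1 (-1.57, adjusted p = 3.4e-14) in MDA-MB-231 and PLK1 (-8.19, adjusted p = 1.7e-28) and AURKA (-2.33, adjusted p = 1.3e-17) in MDA-MB-453. NEK2, PLK1 and AURKA take down the cilium and are also cell-cycle genes that fall with proliferation.

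Ciliogenic transcription factors gave 0 higher and 1 lower of 7 in MDA-MB-231, while MDA-MB-453 gave 0 and 2 of 6 (0 and 0, and 0 and 1 with the combination). Markers of multiciliated cells, a cell type rich in IFT transcripts, were mostly low: 11 of 22, FOXJ1 among them, had no count in any of the 12 libraries of each line, and 4 (MDA-MB-231) and 5 (MDA-MB-453) had at least 1 CPM under DMSO. The highest of these was CCNO, a cyclin-like protein of centriole amplification, at 20.0 ± 4.42 CPM (SD, n = 3) in MDA-MB-453. Their summed level in MDA-MB-231 ran from 9.05 to 12.5 CPM under DMSO and 10.9 to 17.9 with abemaciclib and 19.7 to 26.7 with the combination (in MDA-MB-453, 25.2 to 30.7, 16.4 to 19.2 and 29.1 to 32.7). The part of these genes in the members' values was not tested. With abemaciclib 0 of 3 tested markers were called in MDA-MB-231, compared with 1 of 5 in MDA-MB-453, where CCNO was lower (-1.05, adjusted p = 0.00155). With the combination 2 of 3 were higher in MDA-MB-231, and of the 5 tested in MDA-MB-453 2 were higher and 1 lower. With fulvestrant no gene of these cilium lists was called in either line.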

How the data were processed

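The deposited table holds raw counts per gene, which the authors made, per the labels and the study's methods, by trimming reads, aligning them to hg38 with STAR and counting them with featureCounts. Handling of strand and of reads with several alignments is not given in the sources used here. The table held 1 line without a gene name, with 0 counts. CPM are counts per 1000000 counts of the library. Counts were tested with edgeR 4.0.16 quasi-likelihood models in R 4.3.3 (filterByExpr, TMM scaling, 2-sided, Benjamini-Hochberg adjustment over all genes tested), over the 12 libraries of each line, or over all 24 to compare lines. Intervals are at 95%. The models were tested on simulated data. DESeq2 1.42.0 was an alternative, and its log2 values were used only there. Replicate pairs differed by more than sampling noise (chi-square per degree of freedom 2.64 to 8.65 in 24 pairs), and p-values measure the spread between these cultures. Replicate numbers did not pair the samples. Floors cover counting error only, and use of molecular identifiers is not stated in the sources used here. Genes described with every library are the members called against DMSO. From each cilium list up to 2 called genes in each direction with the largest change under abemaciclib and at least 10 CPM were named, except that some list genes are not reported here. Members and gene lists were chosen with earlier results of these data known. Promoter sequences are from RefSeq, and gene positions from a later GENCODE annotation of the same genome than the one used for counting. The marker lists of the lines themselves gave, with abemaciclib, 4 higher and 0 lower of 8 mesenchymal and 2 and 1 of 6 luminal genes in MDA-MB-231, and 3 and 1 of 10 luminal genes in MDA-MB-453.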

Additional observations from a re-analysis of the deposited data

Results flagged for a closer look

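In the results below the effect of a drug differed between MDA-MB-453 and MDA-MB-231 in a test of the difference itself (edgeR, adjusted over 12750 genes). Differences are on the log2 scale, as MDA-MB-453 minus MDA-MB-231, and each line contributed 3 libraries per group.

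For abemaciclib the differences were -2.14 for IFT122 (adjusted p = 5.0e-04), -1.69 for BBS7 (adjusted p = 0.0275), 2.55 for BBS4 (adjusted p = 0.00326), -1.52 for BBS2 (adjusted p = 0.0402) and -1.03 for IFT27 (adjusted p = 0.0228). IFT122 fell in MDA-MB-453 in 3 of 3 libraries and lay above DMSO in 3 of 3 in MDA-MB-231. The BBS2 difference was not called without MDA-MB-231 DMSO replicate 1, MDA-MB-231 abemaciclib replicate 1, MDA-MB-453 DMSO replicate 1 or MDA-MB-453 abemaciclib replicate 2, that of BBS7 without MDA-MB-231 abemaciclib replicate 2, MDA-MB-453 DMSO replicate 2 or MDA-MB-453 abemaciclib replicates 2 or 3, and that of IFT27 without MDA-MB-231 abemaciclib replicate 1.

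For the combination they were -1.70 for IFT122 (adjusted p = 0.00531), -2.30 for IFT81 (adjusted p = 0.028), 2.67 for BBS4 (adjusted p = 0.00229) and -2.27 for BBS2 (adjusted p = 0.00147). The IFT81 difference was not called without MDA-MB-231 DMSO replicates 2 or 3, MDA-MB-453 DMSO replicate 2 or MDA-MB-453 combination replicates 1 or 2.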

How the results depend on the processing

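No called value changed direction. The count of members called with abemaciclib in MDA-MB-231, 1 in the report, was 2 with DESeq2 size factors, with mitochondrially encoded genes removed, with no filter on low counts and with DESeq2's Wald test, 3 with a filter of at least 1 CPM in 3 libraries, and 1 to 3 without single replicates (3 without DMSO replicate 1 or 2, 2 without DMSO replicate 3 or abemaciclib replicate 2). The genes gained were BBS9, IFT81 and IFT20. The fulvestrant count in MDA-MB-453, 1 in the report, was 0 with library totals alone, no filter, DESeq2's Wald test or only the groups compared, and 0 to 1 without single replicates. DESeq2 gave an adjusted p to only 2233 genes in that comparison, so its 0 may mean that IFT20 was not tested. The combination count there was 5 with only the groups compared, where BBS7 and IFT27 were gained. The difference between lines in the abemaciclib effect gave 3 to 7 members without single replicates. The members' median log2 change was -0.14 with library totals alone and -0.11 to 0.10 without single replicates for abemaciclib in MDA-MB-453, 0.33 with only the groups compared and 0.24 to 0.64 without single replicates for the combination in MDA-MB-231, 0.31 to 0.44 for abemaciclib in MDA-MB-231 and -0.06 to 0.17 for the combination in MDA-MB-453 without single replicates. The causes were not tested. Of 14 calls of single members against DMSO with abemaciclib or the combination, each under 14 alternatives, 12 were kept in all, and BBS7 (MDA-MB-231, combination) was lost in 4 and IFT74 (MDA-MB-453) in 9.

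Replicate numbers did not pair the samples: the 36 correlations between same-numbered samples ran from -0.092 to 0.045, 0 of them over 0.1. With a replicate block, the fulvestrant count in MDA-MB-453 was 0, the abemaciclib count there 5 (IFT74 lost) and the count between lines under DMSO 10 (IFT74 and IFT88 lost). The other counts with the block were those of the report. At the depth of these libraries 3 counts over a group correspond to 0.255 to 0.30 CPM. Most members that failed the filter on low counts were BBS genes, and the cause was not tested.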

Other observations

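Genes below were chosen after their values were seen. Among the motors of the trains, DYNC2LI1, a dynein-2 light intermediate chain, was higher with abemaciclib in both lines (log2 change of 2.19 in MDA-MB-231, with an adjusted p = 9.1e-04, while the change in MDA-MB-453 was 0.88, adjusted p = 0.0303), while WDR34 of the same motor was lower in both. With the combination WDR60, the other dynein-2 intermediate chain, was higher in both lines, by 1.35 (adjusted p = 3.0e-05, MDA-MB-231) and by 0.62 (adjusted p = 0.0416, MDA-MB-453). Members of the same motor thus moved in opposite directions. In MDA-MB-453, TMEM237 of the transition zone (-3.11, adjusted p = 8.5e-07) was lower with abemaciclib. DYNC2LI1 in both lines and TMEM237 in MDA-MB-453 averaged below 10 CPM over the abemaciclib and DMSO groups. Their changes thus rest on low levels, whereas WDR34 was at 81.7 CPM (MDA-MB-231) and 172 CPM (MDA-MB-453) under DMSO.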
